A study of Drosophila melanogaster with 48 samples.

Results

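The proteasome genes of Drosophila melanogaster and their testis copies were followed through a wave of germ cell differentiation. Members were all genes whose deposited symbol begins with Prosalpha or Prosbeta, or with Rpn or Rpt and a digit. This rule found 48 genes among 11025 gene symbols in the lysate files and 11996 in the fraction files. Of these, 32 are general subunits and 15 are testis copies, taken as the symbols that end in T, T1, T2, R, R1 or R2 after a digit. The remaining gene, Prosalpha1R, ends in R but had nearly the same level as its neighbour Prosalpha1 in every library, and it is described apart.

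The animals were bam-/-;hsBam, in which germ cells lack the differentiation factor bag of marbles until a heat-inducible copy is switched on. The crosses were kept at 22 °C, pupae were warmed to 37 °C for 30 min, and the animals were then held at 25 °C. Whole-testis lysate was taken at 0, 16, 24, 32, 48 and 72 h after the shock. At 24, 48 and 72 h testis extract was also spread by polysome profiling into 6 pools, from ribosome-free RNA through 40S, 60S and 80S to 2-3 ribosomes and to the heaviest, 4+ ribosomes. Each group had 2 libraries, labelled as biological replicates, of 3′ end reads made with a QuantSeq forward kit. All 48 libraries came from shocked animals of this genotype, so the hours follow differentiation, recovery from heat and age together, and these cannot be told apart. Every library was labelled as testis, and the labels name no sorting of cells.

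The 26S proteasome degrades proteins that carry ubiquitin. Its 20S core is a barrel of outer rings of α subunits, which gate the entry, and inner rings of β subunits, some of which hold the cutting sites. The 19S regulatory particle caps the core, with the Rpt ATPases unfolding substrates and the Rpn subunits binding ubiquitin, removing it or holding the particle together. Drosophila carries extra copies of many of these genes that are expressed mainly in the male germ line, and Prosalpha6T is known to be needed for spermatids to individualize into sperm. The 15 copies fall on 11 subunit positions: Prosalpha3, Prosalpha4, Prosalpha6, Prosbeta2, Prosbeta4 and Prosbeta5 in the core, and Rpn12, Rpn13, Rpt3, Rpt4 and Rpt6 in the regulatory particle.

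Levels are given as CPM, the reads of a gene per 1000000 of its library's listed reads after TMM scaling, which sets libraries of a kind to a common level over most genes, replicate 1 before replicate 2. A QuantSeq library gives about 1 read per mRNA 3′ end whatever the gene's length, so levels were not divided by length. Lysate libraries held 12.04 to 20.7 M reads (M stands for 1000000) and fraction libraries 0.445 to 9.57 M. The shallowest library belonged to the 60S pool of 72 h (replicate 2), and results in fractions are also given without the 60S libraries of that time where they differ. The 0 h replicate 1 library also stood apart: of 2287 genes above 50 CPM in the other 0 h library, 122 were not listed in it, against 39 of 2114 the other way round. Prosalpha4 and Rpt6 were among those 122. In bulk tissue, fewer cells of a type and less RNA per cell cannot be told apart. Pools were scaled without an added reference RNA, so a pool's CPM is a level relative to the other genes of that pool and not an amount of RNA.

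The testis copies were low or unlisted early in lysate. Rpt3R and Rpt4R were listed in every library, and Prosbeta2R2 in both libraries at 0 h and again only from 48 h, with 1 library each at 16 h and 32 h between. The other 9 core copies were first listed in both libraries of a time at 32 h or later. Both libraries listed 3 of the 15 copies at each of 0, 16 and 24 h and 5 copies at 32 h. That number was 13 at 48 h, and by 72 h it was 15. Summed over the 5 regulatory particle copies, the level was 44.7 and 144 CPM at 0 h, 267 and 280 at 32 h, 492 and 442 at 48 h, and 451 and 389 at 72 h. Summed over the 10 core copies, it was 2.14 and 2.00 CPM at 0 h, no more than 7.53 in any library through 32 h, 236 and 228 at 48 h, and 1068 and 1181 at 72 h. The sums of the core copies at 48 h and 72 h did not overlap, whereas those of the regulatory particle copies did. The 32 general subunits summed to 8136 and 8178 CPM at 0 h and 9273 and 9873 at 72 h.

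**Figure D1:**
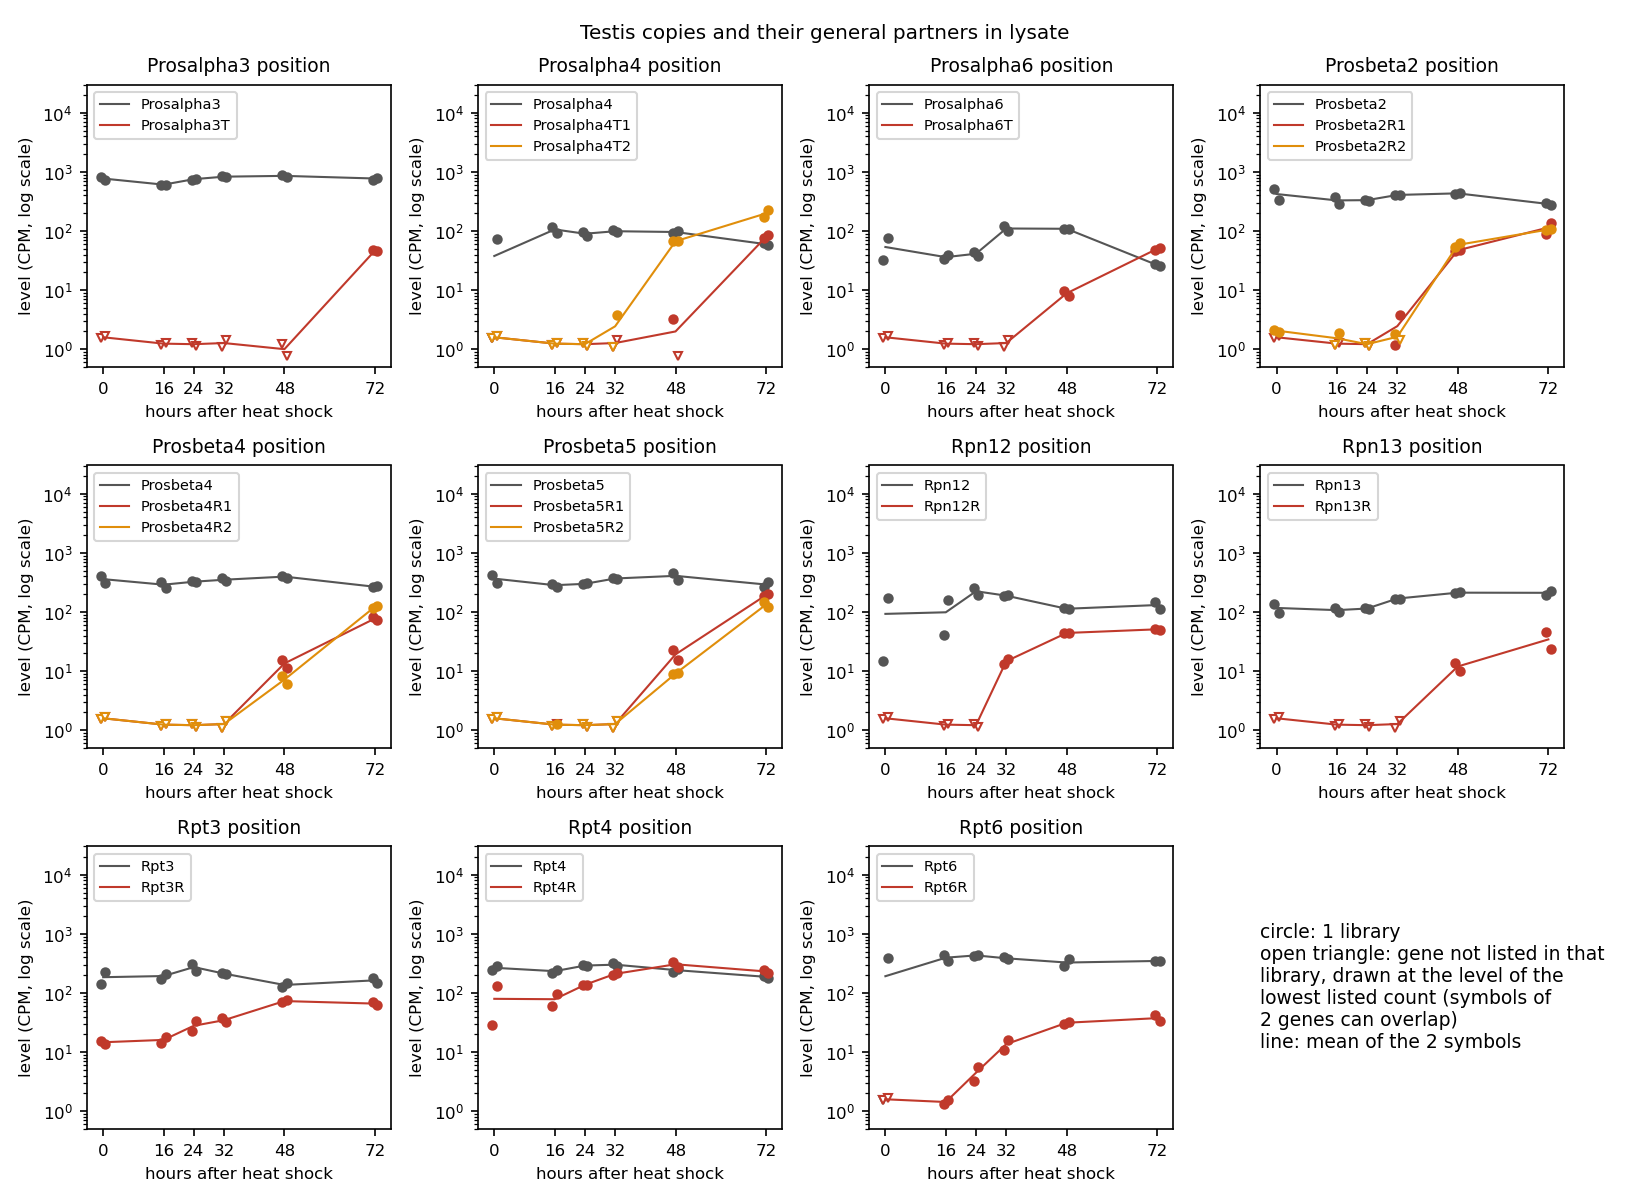
Level (CPM, log scale) of each testis copy and its general partner in lysate against hours after heat shock, 1 panel per subunit position. Circles are libraries, open triangles are libraries in which a gene was not listed, and lines join means; the core copies climb between 32 and 72 h while Rpt3R and Rpt4R are listed from 0 h.

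Among the α subunit copies, Prosalpha4T2 was listed first. No library of 0, 16 or 24 h listed it, and it stood at 67.4 and 66.9 CPM at 48 h and 170 and 228 at 72 h. Its relative Prosalpha4T1 was at 3.24 CPM in 1 library of 48 h and at 75.3 and 84.5 at 72 h. Both are copies of Prosalpha4, an α ring subunit, and at 72 h both copies stood above its 61.7 and 58.0 CPM. Prosalpha6T, the copy with the known role in individualization, was at 9.80 and 7.87 CPM at 48 h and 47.7 and 52.4 at 72 h. Prosalpha3T was listed at 72 h alone, at 47.9 and 45.7 CPM, beside 741 and 802 for Prosalpha3. Folds over 0 h were taken against the lowest count listed for a 3′ end, 20 reads per library. On that basis the 72 h level was 27.5-fold higher for Prosalpha3T, 45.3-fold for Prosalpha4T1, 102-fold for Prosalpha4T2 and 28.7-fold for Prosalpha6T. These folds are lower bounds only where the unlisted reads of a gene lay at 1 end.

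The β subunit copies copy the catalytic Prosbeta2 (trypsin-like) and Prosbeta5 (chymotrypsin-like) and the non-catalytic Prosbeta4. Prosbeta5R1 had the highest level of the 6 at 72 h, 187 and 200 CPM after 23.2 and 15.3 at 48 h. Prosbeta5R2 went from 8.92 and 9.24 CPM at 48 h to 147 and 122 at 72 h. Each of these pairs of libraries lay apart from the other. Prosbeta4R1 read 15.6 and 11.4 CPM at 48 h and 82.1 and 73.6 at 72 h. Prosbeta4R2, its neighbour on chromosome arm 2L, read 8.30 and 6.08 and then 119 and 127 CPM. The Prosbeta2 copies were earlier. Prosbeta2R1 was at 1.20 and 3.73 CPM by 32 h, 45.9 and 48.4 at 48 h and 90.0 and 139 at 72 h. Prosbeta2R2 was already listed at 0 h, at 2.14 and 2.00 CPM, and read 53.3 and 63.1 at 48 h and 102 and 110 at 72 h. Its 72 h level was 5.65 log2 units above 0 h (SE 0.46, limma with Benjamini-Hochberg adjustment, adjusted p = 4.75e-06).

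Of the regulatory particle copies, Rpt4R was the most abundant throughout. Rpt4 and Rpt3 are ATPases of the base ring, and their copies Rpt4R and Rpt3R were the highest at 0 h. Rpt4R read 29.0 and 130 CPM at 0 h, 139 and 136 at 24 h, 335 and 277 at 48 h and 243 and 220 at 72 h. Rpt3R read 15.7 and 13.7, then 22.8 and 33.1, 69.2 and 76.9, and 69.5 and 62.8 CPM at the same times. Neither was called between 48 h and 72 h (log2 -0.39 and -0.15, limma adjusted p = 0.618 and 0.661). Rpt6R, the copy of another base ATPase, was listed from 16 h at 1.32 and 1.55 CPM and read 41.9 and 33.3 at 72 h. Rpn12R, the copy of a lid subunit, appeared at 32 h at 13.4 and 16.0 CPM and was at 43.6 and 44.9 at 48 h and 52.0 and 49.9 at 72 h. Rpn13R, the copy of a ubiquitin receptor, was not listed through 32 h, was at 13.9 and 10.04 CPM at 48 h and at 45.3 and 23.5 at 72 h.

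In the limma fit across all genes, 36.7% of 10335 tested genes were higher at 72 h than at 0 h and 10% were lower. All 15 copies were higher at 72 h. That count is a description, since 12 of the copies were unlisted at 0 h and passed the filter on low values only through the later times, where they were bound to differ. Rpt3R rose by 2.17 log2 units (SE 0.27, adjusted p = 0.00012) and Rpt4R by 1.93 (SE 0.53, adjusted p = 0.0155). Without the 0 h replicate 1 library the estimate for Rpt4R was 0.83 and still past the threshold, and all 15 copies were still called. Without either 72 h library the call of Rpt4R was lost and 14 copies were called. At 48 h, 13 of 15 copies were higher beside 33% of all genes, the exceptions being Prosalpha3T and Prosalpha4T1. Earlier, 3 copies were higher at 32 h (Rpn12R, Rpt3R and Rpt6R; 7.44% of all genes) and Rpt6R alone at 24 h (0.822%).

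Between 48 h and 72 h, 10 of 15 copies rose, beside 23.7% of all genes. They were 9 of the 10 core copies and Rpn13R, and the 4 α copies and 5 of the 6 β copies were among them. That count too is a description, since Prosalpha3T and Prosalpha4T1 passed the filter on low values only through 72 h. Prosbeta4R2 rose by 4.13 log2 units (SE 0.24, adjusted p = 4.56e-06), Prosbeta5R2 by 3.87 and Prosbeta5R1 by 3.41, while Prosalpha4T2 rose by 1.55 and Prosbeta2R1 by 1.24. The call of Prosalpha4T2 was lost in all 4 fits that left out 1 library, that of Prosbeta2R1 in 3 and that of Rpn13R in 2. Prosbeta2R2 missed the threshold at 0.86 (SE 0.32, adjusted p = 0.0788). Rpn12R, Rpt3R, Rpt4R and Rpt6R were not called, with estimates from -0.39 to 0.25. Scaling by total listed reads took the all-gene median change from 0.22 to -0.35, and then 7 copies were higher, 1 was lower, and 11 general subunits were lower. When 1 of the 4 libraries was left out the count of copies higher was 7 or 8.

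The general subunits moved far less. Of 32, 12 were higher and 1 lower at 72 h than at 0 h, beside the 36.7% and 10% of all genes, and their median change of 0.50 log2 units lay beside 0.54 for all genes. The same held at 48 h, when 14 were higher and none lower beside 33% and 13% (1 was lower at an unadjusted p under 0.05, and none by limma trend). At 32 h 3 were higher, namely Prosalpha6, Rpn3 and Rpn1, beside 7.44% of all genes. Which subunits were called depended on the 0 h libraries: without 0 h replicate 1 the counts were 9 higher and 2 lower at 72 h, and 7 higher and 1 lower at 48 h. With 72 h replicate 2 left out, only 5 were higher at 72 h, and with 48 h replicate 2 left out only 4 at 48 h.

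Among the α subunits called at 72 h, Prosalpha2 had the largest estimate. It read 39.1 and 147 CPM at 0 h, 60.3 and 156 at 16 h, 270 and 253 at 48 h and 318 and 237 at 72 h. The rise of 1.87 log2 units (SE 0.57, adjusted p = 0.0248) became 0.90 (adjusted p = 0.112) without 0 h replicate 1. Prosalpha1 read 154 and 164 CPM at 0 h and 326 and 375 at 72 h, with no overlap, and rose by 1.14 (SE 0.14, adjusted p = 0.000141). Prosalpha3 stayed the most abundant α subunit, at 825 and 718 CPM at 0 h and 741 and 802 at 72 h, with an estimate of 0.00. Prosalpha7 read 446 and 520 and then 678 and 670 CPM (log2 0.49, adjusted p = 0.0388). Without 0 h replicate 1 its estimate was 0.38 and no longer past the threshold. The calls of Prosalpha2 and Prosalpha7 were each kept in 1 of the 4 fits that left out 1 library.

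Prosalpha6 went against the others. It read 31.9 and 75.3 CPM at 0 h, 33.4 and 38.9 at 16 h, 44.0 and 38.5 at 24 h, 121 and 100 at 32 h, 109 and 109 at 48 h, and 27.5 and 25.5 at 72 h. The libraries of 32 h and 48 h lay above those of every other time, and the 72 h libraries lay below all. It rose by 1.18 log2 units from 0 h to 32 h (adjusted p = 0.0468, lost in 3 of the 4 fits that left out 1 library) and fell by 2.04 from 48 h to 72 h (SE 0.35, limma adjusted p = 0.0018), where 4.94% of all genes fell. That fall was called under every alternative run and lay between -2.09 and -1.98 when 1 library was left out. Against 0 h its 72 h level was not called (-0.87, adjusted p = 0.0885), but it was lower without 0 h replicate 1 (-1.50, adjusted p = 0.000376). The only other general subunit that fell in that interval was Prosbeta4, by 0.57 (adjusted p = 0.0407), from 414 and 379 to 261 and 273 CPM, a call lost when any 1 of the 4 libraries was left out. In the same interval Prosalpha6T rose by 2.53 log2 units (SE 0.23, adjusted p = 3.78e-05).

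Among the β subunits, Prosbeta6, the most abundant, read 792 and 721 CPM at 0 h and 897 and 999 at 72 h. It was the sole general subunit higher at 72 h than at 48 h (0.43, adjusted p = 0.0473), and that call was lost when any 1 of the 4 libraries was left out and turned to -0.14 under scaling by total listed reads. Prosbeta1, the caspase-like cutting subunit, read 196 and 132 CPM at 0 h and 223 and 289 at 72 h (0.65, adjusted p = 0.0495). Prosbeta7 read 95.3 and 84.0 and then 146 and 150 CPM (0.73, adjusted p = 0.00336), and Prosbeta3 read 511 and 357 and then 572 and 651 (0.51, adjusted p = 0.0429). The calls of Prosbeta1 and Prosbeta3 were each kept in 1 of the 4 fits that left out 1 library, with estimates of 0.37 to 0.94 and 0.26 to 0.77. The general partners Prosbeta2, Prosbeta4 and Prosbeta5 were not called at 72 h against 0 h, with estimates of -0.53, -0.42 and -0.32.

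Of the 12 general Rpn subunits, 6 were higher at 72 h and none lower, beside 36.7% and 10% of all genes. The count of 0 lower also held at an unadjusted p under 0.05 and by limma trend. Rpn6, a lid subunit that braces the particle against the core, read 36.8 and 79.4 CPM at 0 h and 153 and 177 at 72 h (1.62, SE 0.35, adjusted p = 0.00432). Rpn7, another lid subunit, read 31.3 and 72.1 and then 112 and 120 CPM (1.30, adjusted p = 0.00954). Both calls held without 0 h replicate 1, at 1.05 and 0.68. Rpn10 and Rpn13, the ubiquitin receptors, rose by 0.97 and 0.86, the lid subunit Rpn3 by 0.87, and the deubiquitinase Rpn11 by 0.57. The call of Rpn10 was kept in 2 of the 4 fits that left out 1 library (0.53 to 1.38). Rpn12 was the most erratic, at 14.7 and 171 CPM at 0 h and 40.3 and 158 at 16 h against 148 and 115 at 72 h. None of the 6 general Rpt ATPases was called higher at 72 h, with 2 higher at an unadjusted p under 0.05 and none by limma trend. Rpt4 fell by 0.50 log2 units (SE 0.16, adjusted p = 0.0257), from 245 and 289 to 196 and 180 CPM, without overlap. That call was lost in 3 of the 4 fits that left out 1 library.

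The copies' share of all member reads in lysate was 0.572% and 1.76% at 0 h, 2.68% and 2.92% at 32 h, 7.24% and 6.53% at 48 h, and 14.1% and 13.7% at 72 h. Shares at single positions ranged widely at 72 h. At the Prosalpha4 position the copies held 79.9% and 84.3% of the reads, after 43.2% and 40.1% at 48 h. Prosalpha6T held 63.4% and 67.3% of its position, after 8.25% and 6.73%. The Prosbeta5 copies held 55.6% and 50.4%, the Prosbeta4 copies 43.5% and 42.4%, and the Prosbeta2 copies 39.6% and 47.05%. Prosalpha3T, in contrast, held 6.08% and 5.39%. In the regulatory particle Rpt4R held 55.4% and 55.0%, Rpt3R 27.9% and 29.8%, Rpn12R 26.02% and 30.4%, Rpn13R 18.99% and 9.31%, and Rpt6R 10.8% and 8.70%. For Rpt4R this share was near its level of 48 h (59.3% and 51.7%), whereas for the Prosbeta4 and Prosbeta5 positions it had been under 7% at that time. These are shares of 3′ end reads and not of protein.

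**Figure D2:**
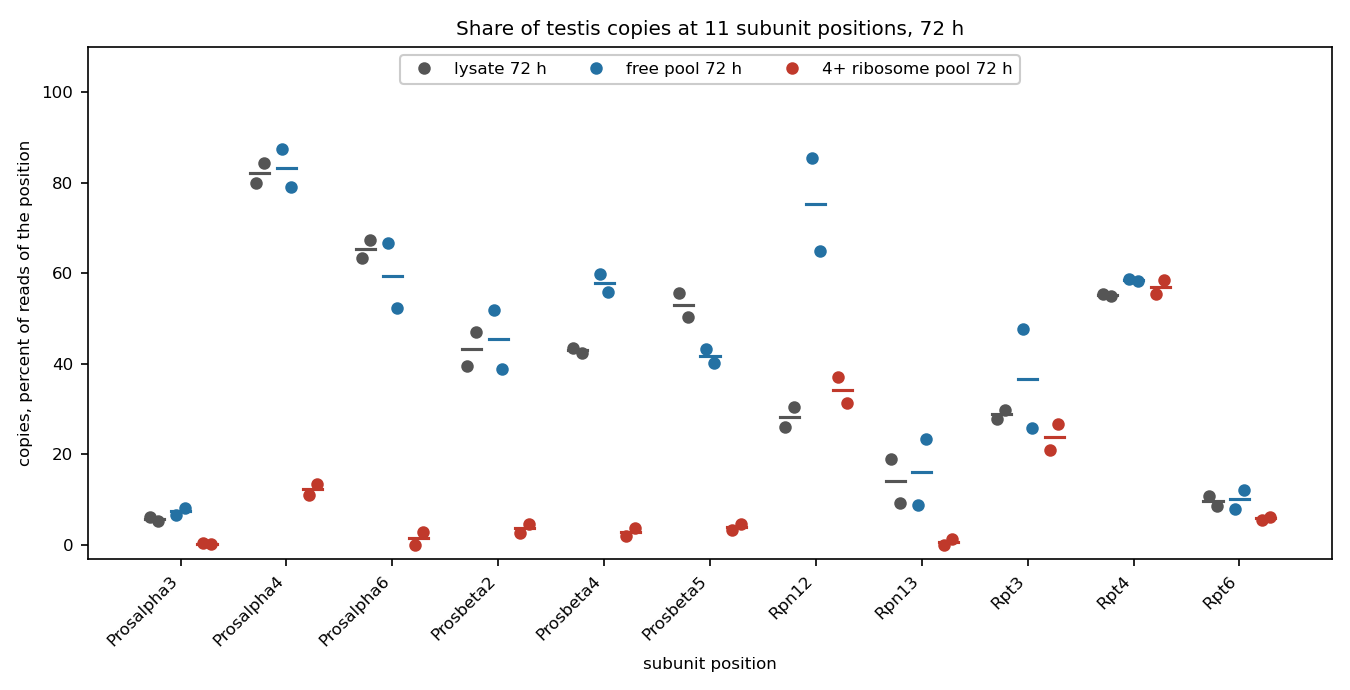
Percent of the reads at each of the 11 subunit positions that belonged to testis copies at 72 h, in lysate and in the polysome pools, with 1 symbol per library. Core copies other than Prosalpha3T hold large shares in lysate and free RNA and small shares in the 4+ pool. Rpt4R holds 55.0% to 58.6% in lysate, free RNA and the 4+ pool, while Rpn12R, Rpn13R and Rpt6R hold smaller shares in the 4+ pool than in free RNA.

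Polysome pools set the copies apart from the general subunits at 72 h. In the limma fit over all 36 fraction libraries, 16.6% of 10777 genes were lower in the 4+ pool than in free RNA and 12.5% were higher. In all, 10 of 15 copies were lower in the 4+ pool, and 1 was higher. Of the 32 general subunits, 14 were higher and none lower. The count of 0 lower also held at an unadjusted p under 0.05 and by limma trend. Those shares, 66.7% and 43.8%, stood beside 16.6% and 12.5% of all genes. Neither direction turned under scaling by total listed reads, under which the all-gene median went from 0.14 to 0.69, with 10 copies lower, 3 copies higher and 27 general subunits higher.

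The lower group held 9 core copies and Rpn13R. Prosalpha6T read 49.1 and 42.1 CPM in free RNA at 72 h, and in the 4+ pool it was unlisted in replicate 1 and at 2.44 in replicate 2 (log2 -4.86, SE 0.68, adjusted p = 8.58e-06). Prosalpha4T1 read 68.2 and 36.8 CPM in free RNA and 2.08 and 4.30 in the 4+ pool (-4.05, adjusted p = 0.000112), and Prosalpha3T read 73.9 and 63.1 and then 5.09 and 3.44 (-4.00, adjusted p = 8.58e-06). Prosalpha4T2 read 274 and 173 CPM in free RNA, 198 and 121 at 40S, 72.4 and 55.6 at 80S, 38.2 and 58.6 with 2-3 ribosomes and 23.02 and 27.7 in the 4+ pool (-3.10, adjusted p = 0.0043). For each of these α copies both free libraries lay above both 4+ libraries.

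The β copies ran the same way. Prosbeta4R2 read 362 and 175 CPM in free RNA and 10.9 and 18.5 in the 4+ pool (-4.12, SE 0.80, adjusted p = 0.000319). Prosbeta2R1 read 255 and 111 and then 12.8 and 11.5 CPM (-3.79), and Prosbeta4R1 read 136 and 133 and then 10.6 and 12.8 (-3.52). Prosbeta5R1 read 275 and 155 and then 15.9 and 29.8 CPM (-3.22), and Prosbeta5R2 read 101 and 69.3 and then 14.9 and 11.5 (-2.68). For each of these the free libraries lay above the 4+ libraries. Prosbeta2R2 was the exception among core copies, with 85.6 and 99.5 CPM in free RNA and 33.4 and 53.6 in the 4+ pool (-1.12, SE 0.59, adjusted p = 0.164), and it was called at -1.09 when both 72 h 60S libraries were left out.

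The regulatory particle copies were split. Rpn13R was lower in the 4+ pool, at 12.3 and 30.9 CPM in free RNA against unlisted and 4.16 (-3.25, SE 0.76, adjusted p = 0.00208). Rpt4R was higher, with 98.4 and 149 CPM in free RNA, 166 and 125 at 40S, 163 and 164 at 80S, 171 and 178 with 2-3 ribosomes and 355 and 479 in the 4+ pool (1.77, SE 0.50, adjusted p = 0.0089). That call was kept in 2 of the 4 fits that left out 1 library, and lost without free replicate 1 or without 4+ replicate 2. Rpt3R read 37.7 and 40.6 CPM in free RNA and 109 and 132 in the 4+ pool (1.62, SE 0.66, adjusted p = 0.0644), and it passed the threshold when the 72 h 60S libraries were left out. Rpn12R read 127 and 109 and then 195 and 160 CPM (0.58, adjusted p = 0.457), and Rpt6R read 13.5 and 26.5 and then 32.6 and 38.8 (0.94, adjusted p = 0.328). In all 4 of these genes both 4+ libraries lay above both free libraries.

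**Figure D3:**
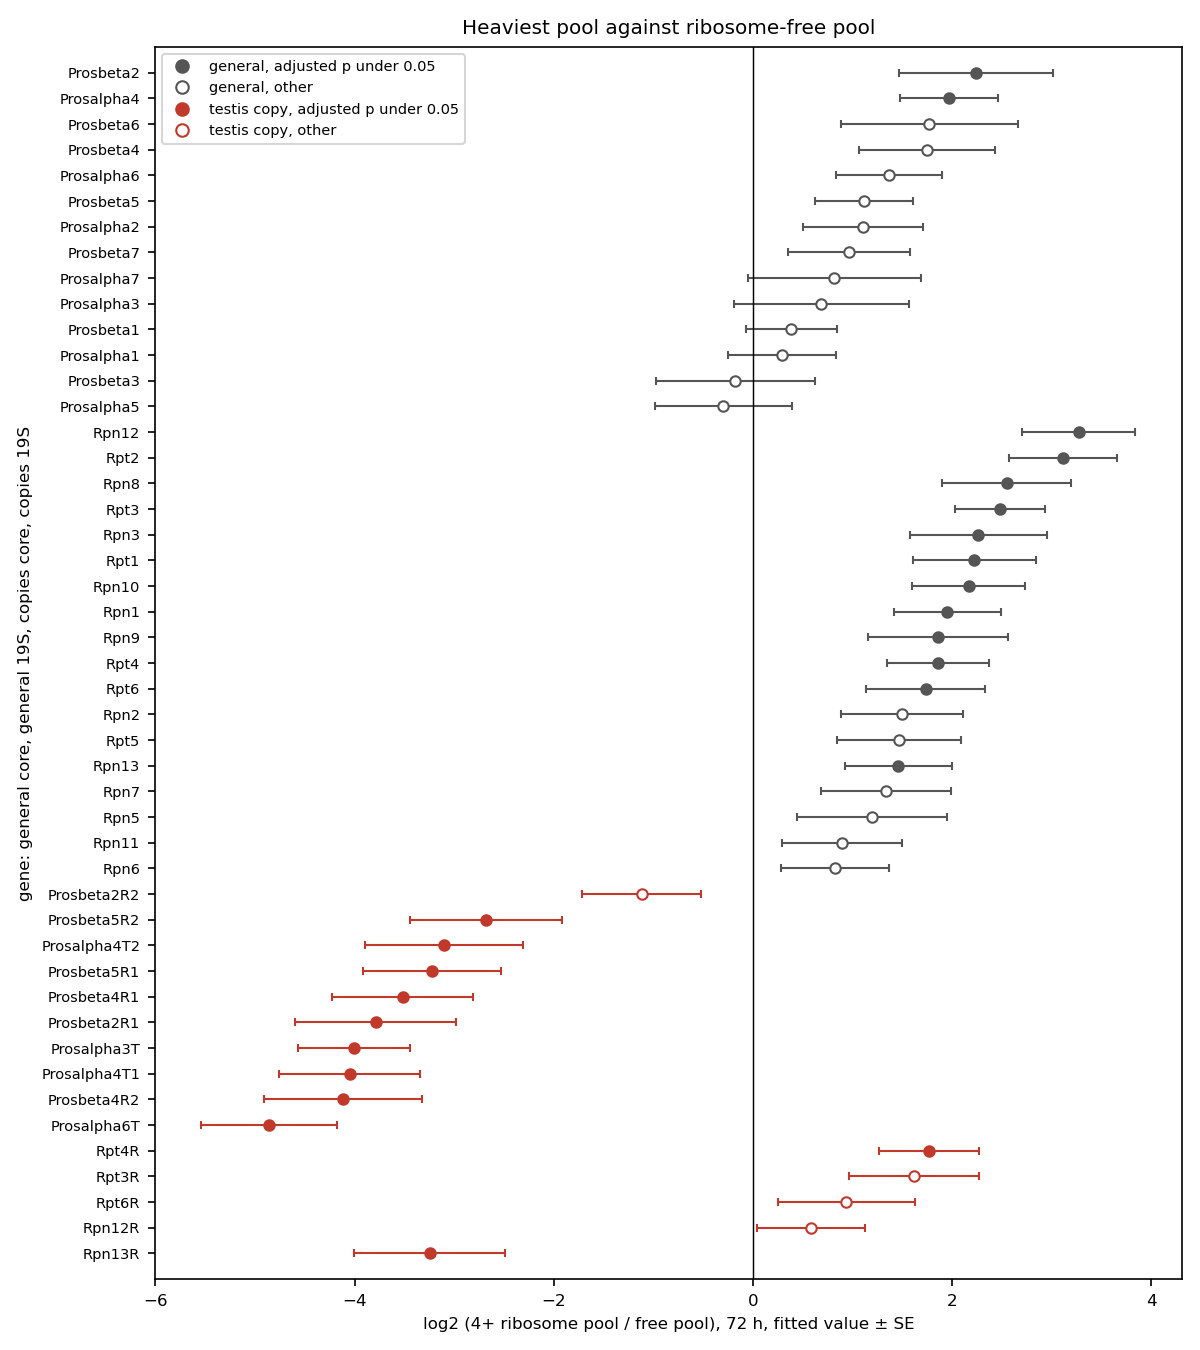
Log2 difference between the 4+ ribosome pool and free RNA at 72 h for each member, from the limma fit, with bars of 1 SE and filled symbols for members past an adjusted p of 0.05. Core copies and Rpn13R lie between -4.86 and -1.12, and Rpt4R lies at 1.77 among the general subunits.

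Of the general subunits, 12 of 18 in the regulatory particle and 2 of 14 in the core were called higher in the 4+ pool. The difference between those shares was not tested. Rpn12, the lid subunit, read 21.7 and 58.8 CPM in free RNA and 329 and 351 in the 4+ pool (3.27, SE 0.57, adjusted p = 0.000103). The base ATPase Rpt2 read 163 and 177 and then 1632 and 1327 CPM (3.11, SE 0.54, adjusted p = 0.000102). Among the other ATPases, Rpt3 was at 2.48, Rpt1 at 2.22, Rpt4 at 1.85 and Rpt6 at 1.73, and Rpt5 missed the threshold at 1.46 (adjusted p = 0.0779). Rpn8 was at 2.55, Rpn3 at 2.26, Rpn10 at 2.17, Rpn1 at 1.95, Rpn9 at 1.86 and Rpn13 at 1.46. The calls of Rpt6, Rpn9 and Rpn13 were lost in all 4 fits that left out 1 library, and that of Rpn3 in 3.

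In the core, Prosbeta2 read 314 and 330 CPM in free RNA, 818 and 630 at 80S, 1243 and 846 with 2-3 ribosomes and 1758 and 1318 in the 4+ pool (2.24, SE 0.77, adjusted p = 0.03), a call lost when any 1 of the 4 libraries was left out. Prosalpha4 read 48.6 and 55.9 and then 203 and 205 CPM (1.97, SE 0.49, adjusted p = 0.00369). Other partners of copies that were lower there had higher values in the 4+ pool. Prosalpha6 read 24.6 and 38.4 CPM in free RNA and 76.6 and 81.0 in the 4+ pool, Prosbeta4 335 and 244 and then 1127 and 817, and Prosbeta5 493 and 334 and then 891 and 866. These 3 missed the threshold (adjusted p = 0.0538, 0.0549 and 0.0895). The estimates of Prosalpha5 (-0.30) and Prosbeta3 (-0.18) were the only ones below 0 among the 32. Leaving out 1 of the 4 libraries lowered the count of general subunits to between 5 (without free replicate 1) and 11, with 7 and 8 when a 4+ library was left out. Leaving out both 72 h 60S libraries raised it to 26, and all genes to 20.3% higher and 21.5% lower.

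Ordered by library, 28 of 32 general subunits had both 4+ libraries above both free libraries at 72 h and 4 overlapped. For 11 copies both free libraries lay above both 4+ libraries, and for the other 4 copies the reverse held. The share of all genes with such an order was not computed, so these counts only describe the members. With the 60S pool left out, the pool with the highest mean was 4+ for 30 general subunits and free RNA for 2. For the copies it was free RNA for 11 and 4+ for 4 (Rpn12R, Rpt3R, Rpt4R and Rpt6R). Summed over genes, core copies stood at 1679 and 1058 CPM in free RNA and 129 and 175 in the 4+ pool. Regulatory particle copies stood at 289 and 356 and then 691 and 814, and general subunits at 9944 and 8564 and then 21444 and 19512.

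**Figure D4:**
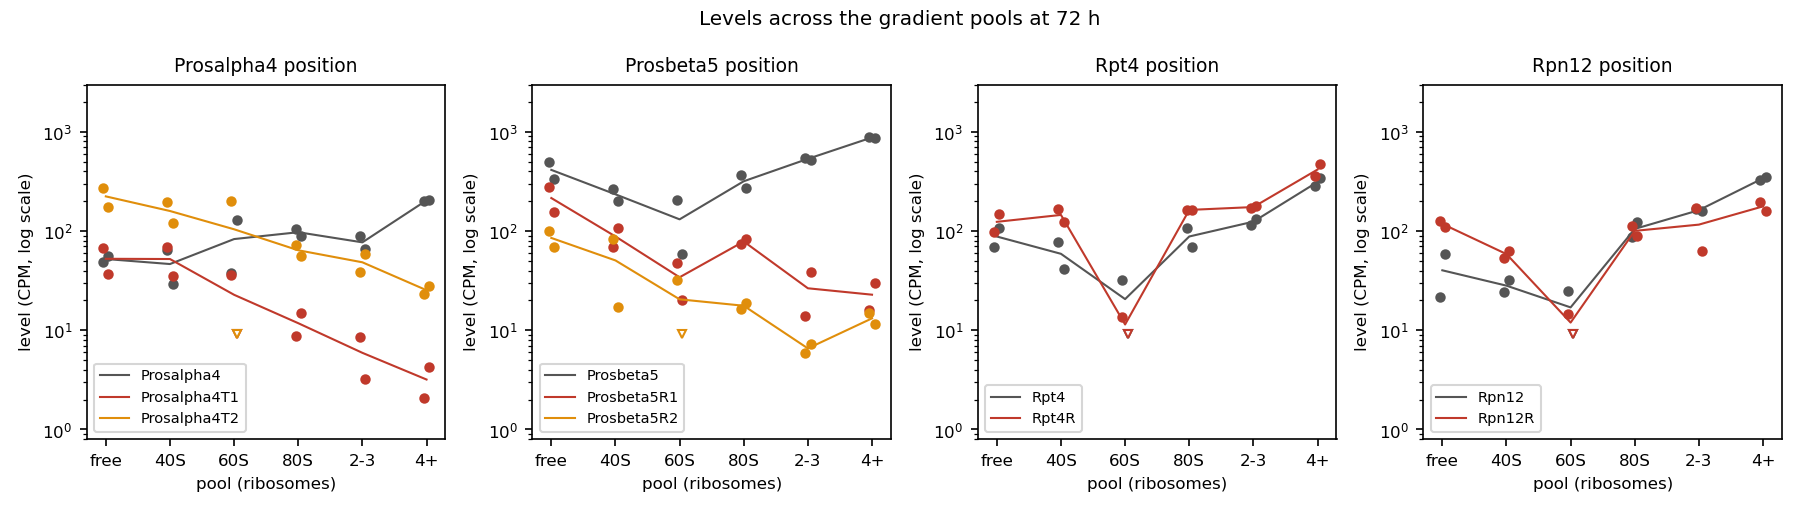
Level (CPM, log scale) across polysome pools at 72 h for copies and their general partners, with 1 symbol per library and lines through the means. Core copies are lower in the 4+ pool than in free RNA, whereas partners, Rpt4R and Rpn12R are higher.

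Within a position, the core copies' share of reads at 72 h was lower in pools with more ribosomes. At Prosalpha4 it was 87.6% and 79.0% in free RNA, 43.7% and 43.9% at 80S, and 11.03% and 13.5% in the 4+ pool. Prosalpha6T held 66.7% and 52.3% of its position in free RNA and 0% and 2.92% in the 4+ pool. The Prosbeta4 copies held 59.8% and 55.8% and then 1.87% and 3.68%, and the Prosbeta5 copies 43.3% and 40.2% and then 3.34% and 4.55%. Rpt4R kept its share, 58.6% and 58.3% in free RNA and 55.4% and 58.6% in the 4+ pool. The other regulatory particle copies had lower mean shares in the 4+ pool. Rpn12R held 85.5% and 65.0% in free RNA and 37.1% and 31.3% in the 4+ pool. Rpn13R held 8.79% and 23.5% and then 0% and 1.42%, and Rpt6R 7.97% and 12.1% and then 5.46% and 6.22%. For Rpt3R the libraries overlapped, at 47.7% and 25.7% and then 21.0% and 26.7%. Over all members the copies held 16.5% and 14.2% of reads in free RNA, 14.2% and 13.4% at 40S, 5.98% and 7.19% at 80S, 4.56% and 4.83% with 2-3 ribosomes, and 3.68% and 4.83% in the 4+ pool.

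At 24 h and 48 h fewer copies could be read in the pools. Copies listed in both free and both 4+ libraries numbered 2 at 24 h, 8 at 48 h and 13 at 72 h, while all 32 general subunits were listed each time. No copy was called in either direction at 24 h or 48 h, also by limma trend. At an unadjusted p under 0.05, 2 were higher at 24 h, and 3 were higher and 4 lower at 48 h. Scaling by total listed reads gave 3 copies higher at each of these times. With only the libraries compared, 2 were higher at 24 h and 1 at 48 h, and the same numbers were higher without the 72 h 60S libraries. By mean level at 48 h, 8 copies were highest at 40S, 5 in the 4+ pool and 2 in free RNA. Prosalpha4T2 at 48 h read 78.5 and 15.3 CPM in free RNA, 192 and 121 at 40S and 5.80 and 6.23 in the 4+ pool, so its pools did not overlap at that time either. Rpt4R read 72.1 and 56.8 CPM in free RNA and 112 and 141 in the 4+ pool at 24 h, and 113 and 81.2 and then 229 and 199 at 48 h. Among general subunits, Prosalpha1, Rpt2 and Rpt6 were higher in the 4+ pool at 24 h (1.93, 2.01 and 2.36), where 1.41% of all genes were higher and 4.9% lower. Rpt2 (2.57) and Rpt6 (1.97) were higher at 48 h, beside 2.78% higher and 8.07% lower. Leaving out any 1 of the 4 libraries gave 0 general subunits at 24 h and 1 at 48 h. The counts became 17 and 17 without the 72 h 60S libraries.

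The difference between times was tested as an interaction. From 24 h to 72 h the 4+ against free difference became lower for Prosalpha6T (-5.49, SE 0.98, limma adjusted p = 0.00176), Prosalpha4T1 (-3.60, adjusted p = 0.0248) and Prosalpha3T (-3.55, adjusted p = 0.00611), beside 4.32% of all genes. It became higher for the general subunit Prosalpha4 (2.70, SE 0.70, adjusted p = 0.0211), beside 1.18% of all genes. Prosalpha4 read 104 and 117 CPM in free RNA and 60.2 and 72.4 in the 4+ pool at 24 h, the reverse of its order at 72 h. Its call was lost in 7 of the 8 fits that left out 1 library, with estimates from 2.57 to 2.84. From 48 h to 72 h only Prosalpha3T was called (-4.26, adjusted p = 0.0053), beside 0.38% of all genes lower and 0.0186% higher. These 3 copies were mostly unlisted at the earlier times, so their estimates rest on the value given to unlisted genes. Prosalpha3T and Prosalpha4T1 were unlisted in every free and 4+ library of 24 h. Their shifts from 24 h therefore restate the 72 h difference against assigned values. None of the 3 copies was called with unlisted genes at 0 reads.

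Where cleavage gave 2 usable 3′ ends, their choice was compared in lysate. Of the members, 11 had a pair of sites and 8 entered the fit over 3749 genes. Prosbeta3, a core β subunit, had ends 76 and 143 nt past its stop codon, and the share of reads at the nearer end was 79.5% and 76.9% at 0 h, 89.1% and 89.4% at 48 h, and 92.1% and 93.7% at 72 h. The groups did not overlap, and log2(near/far) rose by 1.20 at 48 h (limma adjusted p = 0.000614) and by 1.83 at 72 h (adjusted p = 0.000179). Across all genes 27.4% moved to the nearer end and 2.91% to the farther end at 48 h, and 19.8% and 2.29% at 72 h. Rpn9, a lid subunit with ends at 85 and 278 nt, went from 92.6% and 96.3% at 0 h to 98.4% and 98.5% at 72 h; it was called at 48 h (1.97, adjusted p = 0.00489, or 0.0618 without 48 h replicate 2) and not at 72 h (1.01, adjusted p = 0.0773).

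Rpt3R moved the other way, towards the farther end. Its ends lay 71 and 162 nt past the stop codon, and the nearer held 42.4% and 53.9% at 0 h, 28.8% and 21.8% at 48 h, and 25.8% and 19.6% at 72 h. The groups did not overlap, but the call at 48 h was at the edge (-1.49, adjusted p = 0.0498) and that at 72 h missed it (-1.59, adjusted p = 0.06). The 48 h call was lost in 3 of the 4 fits that left out 1 library, under the replicate block, with a minimum of 120 reads, and, at -0.82, when sites were joined within 25 nt. Rpt4R, with ends at 114 and 212 nt, read 67.5% and 97.6% at 0 h and 98.8% and 99.0% at 72 h. It was called at 48 h (4.11, adjusted p = 0.0116) and 72 h (3.33, adjusted p = 0.0408), and without 0 h replicate 1 these became 1.22 and 0.44, with adjusted p = 0.124 and 0.674. Rpn3, Rpn6, Rpn12 and Rpt5 were not called at either time, and no member was called at 32 h, when 5.33% of all genes were (4 members had an unadjusted p under 0.05).

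**Figure D5:**
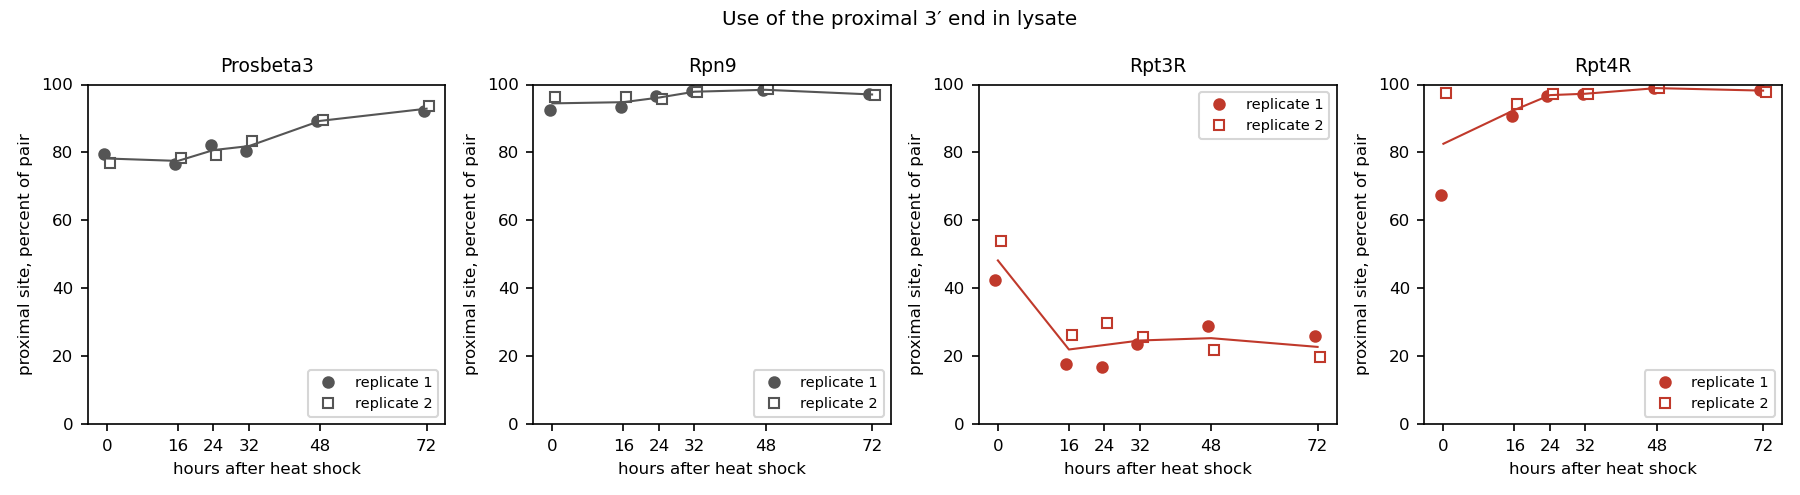
Percent of reads at the nearer 3′ end in lysate against hours after heat shock, with 1 symbol per library and lines through the means. Shown are Prosbeta3, Rpn9, Rpt3R and Rpt4R, the 4 members called at 48 h of the 8 in the fit. Prosbeta3 climbs to 92.1% and 93.7% at 72 h, Rpt3R drops to 25.8% and 19.6%, and the 0 h replicates of Rpt4R lie far apart.

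Genes that work with the proteasome were read from 4 lists. Of 16 cofactors and assembly factors, 15 were tested, and 7 were higher and 2 lower in lysate at 72 h against 0 h (median 0.65 beside 0.54 for all genes), where 36.7% and 10% of all genes were. PI31, a proteasome regulator needed in sperm differentiation, went from 18.9 and 35.1 CPM to 234 and 197 (3.07, adjusted p = 0.000232), and the 19S deubiquitinases Uch-L5 and Usp14 rose by 1.65 and 1.03. Uch-L5R, a copy of Uch-L5, was unlisted at 0 h and at 12.3 and 6.24 CPM at 72 h. REG, the 11S activator, and cnc, a transcription factor for proteasome genes, fell by 0.77 and 0.63. In the 72 h pools 3 of the 15 were higher and 3 lower in the 4+ pool, beside 12.5% and 16.6% of all genes. The same shares of all genes stand beside the counts of the other 3 lists. Sem1, a small lid subunit, went from 3627 and 2317 CPM in free RNA to 208 and 234 in the 4+ pool (-3.71, adjusted p = 0.00504), the assembly chaperone Pomp fell by 2.07, and PI31 fell by 2.13.

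Ubiquitin genes and E1 and E2 enzymes formed the second list: 12 of 19 were tested in lysate, and 5 were higher and 1 lower at 72 h. The E2 enzymes Ubc84D and Ubc87F, both unlisted at 0 h, read 173 and 226 CPM and 447 and 532 CPM at 72 h. In the pools 1 of 19 was higher in the 4+ pool and 4 were lower, with Ubc84D at -6.16 and Ubc87F at -4.70 and the polyubiquitin gene Ubi-p63E at 2.48. In the cullin list 12 of 18 were tested in lysate, and 3 were higher and 2 lower; the RING subunit Roc1b was unlisted at 0 h and read 180 and 249 CPM at 72 h, while its relative Roc1a fell by 1.06. In the pools 2 of 18 were higher and 3 lower, with Roc1b at -4.43. The last list held 6 genes, namely those of spermatid ubiquitin ligases and the regulator PI31. Of these, 5 were tested in lysate and all 5 were higher. They were soti, unlisted at 0 h and at 278 and 238 CPM at 72 h, ntc (2.40), and PI31, Cul3 and Roc1b. The last 3 were already counted in the lists above. In each of the 4 lists, genes unlisted at 0 h took an assigned value there. The lysate counts that include them, as soti and Roc1b here, are descriptions. In the pools 3 of 4 were lower, namely soti, PI31 and Roc1b.

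Markers of the cell types a testis sample can hold moved as follows. Among all genes, 36.7% were higher and 10% lower in lysate at 72 h against 0 h. In the 72 h pools 12.5% of all genes were higher and 16.6% lower in the 4+ pool. Of the 28 tested spermatid and sperm markers all were higher in lysate at 72 h. Their sum was 47.3 and 43.5 CPM at 0 h, when 24 of 31 were unlisted in both libraries, 5851 and 5634 at 48 h and 29387 and 31720 at 72 h. That count is a description, since the markers unlisted at 0 h took an assigned value there and passed the filter on low values only through later times. In the 72 h pools 24 of 30 were lower in the 4+ pool and none was higher, also at an unadjusted p under 0.05 and by limma trend. Early germ cell markers summed to 566 and 646 CPM at 0 h and 419 and 422 at 72 h, with 3 of 13 lower, and 7 of 14 were higher in the 4+ pool. Muscle markers summed to 1253 and 1827 and then 1295 and 1144 CPM (2 higher and 1 lower of 16), cyst cell markers to 163 and 209 and then 227 and 234 (3 higher of 11), and fat body markers to 511 and 724 and then 346 and 323 (3 lower of 12). In the 72 h pools 7 of 16 muscle markers were lower in the 4+ pool and 1 was higher. At 24 h and 48 h 9 and 15 of 16 were lower, beside 4.9% and 8.07% of all genes. At 72 h 2 of 12 cyst cell markers were higher, 3 of 11 fat body markers were higher and 2 lower, and 3 of 14 accessory gland markers were lower. Accessory gland markers varied between replicates, from 248 and 4324 CPM at 0 h through 9373 and 4723 at 48 h to 258 and 615 at 72 h. Between 48 h and 72 h 5 of 14 were lower, beside 4.94% of all genes, and none was lower by limma trend. Against 0 h none of 14 was called at 72 h, which also held at an unadjusted p under 0.05 and by limma trend. The part of any of these cell types in the copies' levels was not tested.

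Gene features that the rule did not use are given without a test. A single coding exon was found in 6 of 15 copies and 4 of 32 general subunits, in the dm6 annotation BDGP6.54. Median coding length was 867 nt for copies and 999 nt for general subunits, and the median distance from stop codon to the most used 3′ end was 101 and 98.5 nt. The copies were spread over all major arms, with 4 on 2L, 2 on 2R, 2 on 3L, 5 on 3R and 2 on X. Prosbeta4R1 (2L:2653046-2653926, plus strand) and Prosbeta4R2 (2L:2655394-2657102, plus strand) are neighbours with 1467 nt between them, Rpt4R lies at 3L:11941912-11943485 on the plus strand, and Prosalpha6T lies at 2L:13232039-13233058 on the plus strand. Overlap with a coding gene on the same strand touches Prosbeta4R2, Rpn12R, Rpn13R and Rpt1, whose reads are therefore uncertain, and 18 members overlap a gene on the other strand.

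Prosalpha1R, deposited in the lysate files as CG30382, lies 1734 nt from Prosalpha1 and has the same coding length, 732 nt, and the same distance of 106 nt to its 3′ end. Prosalpha1R read 149 and 173 CPM at 0 h and 323 and 367 at 72 h in lysate, beside 154 and 164 and then 326 and 375 for Prosalpha1. Their levels stayed this close at every time, so the sources used here do not show how reads that match both genes were shared out, and the values of each are uncertain.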

How the data were processed

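Per the labels, RNA was read from the 3′ end with a QuantSeq forward kit, in 12 lysate and 36 polysome pool libraries, 2 per group. The submitters' processing notes name Bowtie 0.12.8 and dm6. In the deposited files each gene carries a packed text column (unit "other") of 3′ end positions with their read counts. No 3′ end was listed under 20 reads in lysate or 10 in fractions, so an unlisted gene can hold reads at several ends, each under that count. How ends were merged, filtered and assigned to genes is known only from the file layout. Each entry also carries a key coordinate, taken here as the stop codon from which distances to 3′ ends were counted. Of plus-strand keys in the fraction files, 6548 of 6551 lay within 3 nt of a dm6 stop codon, and of minus-strand keys 0 of 5997. In lysate 24.3% of plus-strand and 23.02% of minus-strand keys did, so no lysate coordinate is printed. The printed distances past a stop codon come from lysate and rest on taking the key as the stop codon.

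Reads were summed per gene and tested with limma 3.58.1 (voom weights, TMM scaling, robust moderation, R 4.3.3; tables by Python 3.11.15), all libraries of a kind in 1 fit without covariates, with Benjamini-Hochberg adjustment over all genes and a threshold of 0.05. Because the deposited column is packed text and unlisted genes are cut off at a minimum, limma was used in place of a count model. Unlisted genes were set to 10 reads in lysate and 5 in fractions, and a gene was tested where at least 1 group had it listed in both replicates. Printed CPM use listed reads multiplied by the TMM factor (0.74 to 1.27 in lysate and 0.613 to 2.42 in fractions), and an unlisted gene enters sums as 0. For site choice, the 2 most used ends of a gene, joined within 50 nt, were compared as log2(near/far) in libraries with at least 60 reads at the pair.

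With 2 libraries per group, p-values rest on the spread between replicate libraries, pooled over all groups in the fit and moderated across genes. Groups outside a comparison therefore also enter its p-value. Counting intervals were not computed. All members of the symbol rule are named. The members, the lists of other genes and the tests were chosen with earlier results of these data known. Not every pair of groups had same-numbered libraries deviating together at a correlation over 0.1, so the replicate number was kept out of the fits. Alternatives were scaling by total listed reads, other filters, other values for unlisted genes, limma trend on log2(CPM + 1), smaller sets of libraries, the replicate block and leaving out each library.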

Additional observations from a re-analysis of the deposited data

Results flagged for a closer look

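Interaction terms between times that passed the threshold were 5, all for the 4+ ribosome pool against free RNA. From 24 h to 72 h the log2 difference shifted by -5.49 for Prosalpha6T, -3.60 for Prosalpha4T1, -3.55 for Prosalpha3T and 2.70 for Prosalpha4 (interaction terms in limma, adjusted over all genes). From 48 h to 72 h it shifted by -4.26 for Prosalpha3T. The 3 copies were mostly unlisted at the earlier times, whereas Prosalpha4 was listed in every free and 4+ library. For Prosalpha3T and Prosalpha4T1, unlisted in every free and 4+ library of 24 h, the shift from 24 h restates the 72 h difference against assigned values. None of the 3 copies was called with unlisted genes at 0 reads. No group had enough libraries for a check of single outlying libraries.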

How the results depend on the processing

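In lysate at 48 h and 72 h and in the 72 h pools, counts of members called moved with the processing far more for general subunits than for copies. In the interactions the counts of copies moved as well. Of the 15 copies, 12 were unlisted at 0 h and took an assigned value there, so their lysate counts had little room to move. In lysate at 48 h and 72 h the counts of copies higher kept within 1.5 times under every alternative run, as did the 10 copies lower in the 4+ pool at 72 h except with a mean of at least 50 reads, which left 6. The number of all genes called moved as well, so a shifted count below is not particular to the members. The cause of each shift below was not tested.

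Scaling by total listed reads gave 5 general subunits higher at 24 h, 22 at 32 h, 27 at 48 h and 0 for 72 h against 48 h. Beside these, 4.33%, 22.9%, 49.5% and 16.9% of all genes were higher. For 72 h against 48 h Prosbeta6 reversed to -0.14. With this scaling 2 copies were higher at 24 h and 5 at 32 h. In the 4+ pool scaling by total listed reads gave 19, 22 and 27 general subunits higher at 24, 48 and 72 h. Of 10777 genes, 1140, 1771 and 2778 were higher. With a mean of at least 50 reads, 1 general subunit was higher at 32 h and 0 for 72 h against 48 h (7.53% and 20.6% of all genes). That filter left 0 copies lower in either interaction. With unlisted genes at 0 reads, 1 copy was higher at 16 h, 0 general subunits at 32 h, 1 in the 48 h pools and 0 in the interaction from 24 h to 72 h, and 0 copies were lower in either interaction. With unlisted genes at the lowest listed count, 0 copies were higher at 24 h, 0 general subunits for 72 h against 48 h, and 2, 7 and 3 copies were lower in the 48 h pools and in the interactions from 24 h and from 48 h. Limma trend gave 0 and 1 general subunits higher in the pools of 24 h and 48 h and 5 copies lower in the interaction from 24 h.

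With only the libraries compared, 0 copies were higher at 24 h, 0 general subunits at 32 h and 48 h, 1 at 72 h and 2 for 72 h against 48 h. In the pools this gave 18, 15 and 25 general subunits higher at 24, 48 and 72 h, 7 general subunits and 9 copies in the interaction from 24 h, and 0 copies in that from 48 h. Without the 72 h 60S libraries the pools gave 17, 17 and 26 general subunits higher, 2 copies lower at 48 h, 8 general subunits higher and 9 copies lower in the interaction from 24 h, and 1 and 2 in that from 48 h.

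Leaving out each library in turn gave these ranges, and the number of all genes called also moved between these fits. General subunits higher numbered 0 to 3 at 16 h, 0 to 12 at 24 h, 0 to 14 at 32 h, 4 to 16 at 48 h, 5 to 17 at 72 h and 0 for 72 h against 48 h. In the pools they numbered 0, 1 and 5 to 11 at 24, 48 and 72 h, and 0 to 2 and 0 in the interactions. Copies higher numbered 0 to 1, 0 to 2, 2 to 4, 13 to 14, 14 to 15 and 7 to 8 in the same order of lysate comparisons. Copies lower numbered 0, 0 to 4 and 8 to 10 in the pools, and 2 to 4 and 0 to 1 in the interactions. Members called for site choice numbered 0 to 4 at 32 h and 1 to 4 at 48 h and at 72 h.

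Replicate numbers were not taken as pairing the libraries: deviations of same-numbered libraries correlated at a median of -0.01 over 15 pairs of lysate groups (2 over 0.1, highest 0.53) and of 0.05 over 136 pairs of fraction groups (40 over 0.1, highest 0.45). With the replicate block, general subunits higher numbered 0 for 72 h against 48 h, 10 at 72 h and 13 in the 72 h pools, and copies 15 and 10.

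Genes under the listing minimum have no value, so the start of a copy's expression can be placed only to the first time it was listed, and only the folds written as at least are lower bounds. Fitted log2 values of unlisted genes rest on the reads assigned to them and are no bounds. With 2 libraries per group, single libraries decided many calls of general subunits.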
